A study of Mus musculus with 12 samples.

Results

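A group of 10 genes of the BCL2 family were followed in γδ T cells and their thymic precursors from mice with and without the transcriptional repressor GFI1. The genes were taken by name, with earlier results of these data known: Bcl2, Bcl2l1, Mcl1, Bcl2a1b, Bcl2a1d, Bcl2l11, Bid, Bad, Bax and Bak1. They are 10 of the 33696 genes listed in the count tables, and all 10 were among the 14921 genes abundant enough to be tested. The cells came from adult animals on a C57BL6/J background, either wild type (WT) or germline GFI1 knockout (KO), and were read by droplet-based 3′ single-cell RNA sequencing. In each of 3 compartments, namely γδ T cells of the spleen, γδ T cells of the thymus and CD4- CD8- double negative thymocytes of stages 1 to 3 sorted together (the DN sort), 2 WT and 2 KO libraries were available, 12 in all. B, myeloid and NK cells were depleted with magnetic beads before sorting, WT and KO cells carried different hashtag antibodies and shared 1 droplet run per pool, and the number of mice behind a library is not given in the sources used here. A germline knockout removes GFI1 from every cell of the animal, so the labels do not separate effects inside the sorted cells from effects of their surroundings.

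BCL2 proteins decide at the outer mitochondrial membrane whether a cell dies by the intrinsic route of apoptosis. The survival members BCL2, BCL-XL (Bcl2l1), MCL1 and A1 (the Bcl2a1 genes) hold the pore-forming effectors BAX and BAK in check, while BH3-only proteins such as BIM (Bcl2l11), BID and BAD bind the survival members or trigger the effectors. T lineage cells are known to shift between these guardians as they mature: BCL2 is sustained by IL-7 signalling, A1 is a target of NF-κB, and BIM drives the removal of developing and activated T cells.

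Bcl2a1b and Bcl2a1d are near-identical mouse copies of the gene for A1, and they are described together below because reads cannot always be told apart between them. Their GENCODE transcripts shared 810 of 817 aligned bases (99.1%). The stretches before their start sites, read from RefSeq on GRCm38.p6, are shown because the 2 copies rose together in the KO libraries of all 3 compartments. The Bcl2a1b stretch lies on chr9:89199023-89199228 on the plus strand and the Bcl2a1d stretch on chr9:88731851-88732050 on the minus strand, each upstream of the first exon, and capitals mark the bases that differ or have no partner in the other copy.
Bcl2a1b: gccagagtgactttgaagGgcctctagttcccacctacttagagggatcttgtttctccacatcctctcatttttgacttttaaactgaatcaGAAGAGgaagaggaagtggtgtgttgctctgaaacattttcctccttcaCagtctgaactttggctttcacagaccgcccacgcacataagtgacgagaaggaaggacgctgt
Bcl2a1d: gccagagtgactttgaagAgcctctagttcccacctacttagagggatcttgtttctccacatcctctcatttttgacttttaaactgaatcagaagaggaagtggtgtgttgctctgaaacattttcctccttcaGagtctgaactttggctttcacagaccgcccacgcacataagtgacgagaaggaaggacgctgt
The stretches differed at 2 bases and by 6 unpaired bases in Bcl2a1b. Both hold GGAAGT, the core letters bound by ETS factors. Searched on both strands, these letters occurred in 23.8% of 32851 RefSeq promoter windows and in those of 6 of the 10 genes. This is a match of letters and not a measured site.

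Libraries are called by the genotype on their labels throughout, because the targeted transcript did not check them. Gfi1 was read at 11.8 and 18.0 CPM (UMI counts scaled to a library total of 1000000, where a UMI marks 1 captured RNA molecule) in the WT and at 18.1 and 18.1 in the KO splenic libraries. Thymic γδ T cells gave 16.5 and 17.6 CPM in WT and 28.9 and 19.2 in KO, and the DN sort 44.7 and 40.6 in WT and 70.6 and 56.6 in KO. Gfi1 RNA was therefore not lower in the libraries labelled KO, with log2 differences of 0.37, 0.62 and 0.57, of which the thymic γδ T value passed (edgeR, adjusted p = 0.0251), and whether the counted 3′ end lies outside the deleted part is not stated in the sources used here. Each library held 6795 to 11679 cells after filtering and 42091895 to 71663962 UMIs, with a median of 4947 to 6853 UMIs per cell. Summed over the 4 γδ T markers Trdc, Trgc1, Cd3e and Cd3g, splenic libraries reached 3247 to 3386 CPM in WT and 5388 to 5637 in KO, and thymic γδ T libraries 3368 to 3382 and 6013 to 6712. The DN sort reached 3000 to 3154 CPM in WT and 3018 to 3069 in KO, close to the WT γδ T sums. Trdc alone was at 192 and 199 CPM in WT DN, 1359 and 1485 in WT splenic and 1286 and 1233 in WT thymic γδ T libraries. The DN libraries held the stage markers Il2ra, Ptcra and Rag1 at 648 to 877 CPM. Their sum was 21.7 to 25.7 CPM in WT and 158 to 170 in KO spleen, and 23.9 to 41.1 and 115 to 147 in thymic γδ T cells. In the KO γδ T libraries nearly all of it was Il2ra.

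Markers of other cells and of proliferation differed between the genotypes too, and their part in the results below was not tested except where a value without them is given. Cells with a UMI of the proliferation genes Mki67 or Top2a made up 4.29% to 6.29% of WT and 21.2% to 21.7% of KO splenic cells, 39.2% to 42.2% of WT and 22.2% to 25.2% of KO thymic γδ T cells, and 52.3% to 55.1% of WT and 40.9% to 45.7% of KO DN cells. In the spleen the summed level of the 2 genes overlapped all the same, at 39.1 to 63.2 CPM in WT and 51.95 to 63.3 in KO, so the larger KO share there did not go with a higher level. The 3 NK markers summed to 42.7 to 44.4 CPM in WT and 7.12 to 8.24 in KO spleen, with all 3 lower in both KO libraries, and the 4 αβ T markers to 199 to 251 and 59.98 to 65.2, again with all 4 lower. The 5 myeloid markers summed to 28.4 to 33.0 CPM in WT and 2.58 to 4.17 in KO spleen, and the 2 erythroid markers to 24.1 to 27.8 and 48.8 to 115, both of them higher in KO. Only 2 of the myeloid markers were lower in both KO libraries, and Fcer1g made up most of the WT myeloid sum, at 29.1 and 27.6 CPM. The 6 B-lineage markers ranged from 221 to 1989 CPM between the 2 WT splenic libraries, with Igkc at 1548 in WT library 1 and 1.55 in WT library 2, and from 72.4 to 396 in KO. In the DN sort the 6 B-lineage markers summed to 165 to 308 CPM in WT and 1740 to 3786 in KO. Immunoglobulin light chain RNA (Igkc) accounted for most of that sum in the KO libraries, and 5 of the 6 markers were higher in both of them. In the same sort the αβ T markers summed to 27.3 to 31.3 CPM in WT and 71.96 to 164 in KO, the NK markers to 9.10 to 13.4 and 17.5 to 23.3, and the myeloid markers to 13.9 to 14.9 and 34.7 to 36.2. Of the myeloid markers 2 were higher and 1 lower in both KO libraries. Fcer1g made up most of the KO myeloid sum, at 30.5 and 29.8 CPM against 7.99 and 5.55 in WT. Lyz2 was the lower one, at 3.56 and 5.53 against 6.05 and 7.70. Trac, the αβ T cell receptor constant gene, made up most of the KO αβ T sum, at 154 and 65.6 CPM in KO libraries 1 and 2 against 18.8 and 20.7 in WT. All thymic libraries held both the female-specific Xist and the Y-linked Ddx3y, as mixed donors give, and Ddx3y was at 28.02 and 25.96 CPM in the WT and 11.6 and 14.2 in the KO libraries of the DN sort. The 12 libraries shared no cell barcode within a pool and at most 34 across any pair.

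The make-up of survival-gene RNA differed between the genotypes. In WT libraries Bcl2 supplied most survival-gene UMIs in all 3 compartments, and in KO γδ T cells of either organ the Bcl2a1 copies together took the largest share. Each molecule is counted once at its 3′ end, so no correction for length was made. Whether all the genes are captured and mapped equally well was not tested. Shares and ratios between genes below are therefore those of counted UMIs. A lower CPM in these sums can reflect fewer cells that make a transcript or less of it per cell, which cannot be told apart in the sums alone, so the share of cells with a UMI is given for the leading genes. None of the sorted populations is known to lack these genes, so no background share could be set.

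Bcl2 encodes the founding survival protein. In splenic γδ T cells it was read at 446 and 458 CPM in the WT libraries and at 59.0 and 34.1 CPM in the KO libraries. Thymic γδ T cells gave 505 and 461 CPM in WT and 134 and 101 CPM in KO. The KO libraries lay below the WT libraries of the same organ with a wide gap, and the order held within each shared droplet run. The log2 difference of KO from WT was -3.18 (SE 0.26; edgeR quasi-likelihood test, adjusted p = 6.76e-06) in the spleen and -1.92 (SE 0.25, adjusted p = 0.000171) in the thymus. Among DN cells, WT libraries gave 382 and 265 CPM and KO libraries 240 and 193. These groups did not overlap, but the WT libraries differed from each other by more than the gap between the groups, and the log2 difference of -0.58 (SE 0.24) did not pass (edgeR, adjusted p = 0.119). Without cells carrying an Mki67 or Top2a UMI the DN difference was -1.03 (edgeR, adjusted p = 0.0153) and passed.

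A Bcl2 UMI was found in 60.5% ± 1.55 (SD, n = 2) of WT and 11.3% ± 2.75 of KO splenic cells. Thymic γδ T cells gave 73.6% ± 1.06 in WT and 23.4% ± 6.15 in KO, and the DN sort 60.5% ± 7.66 and 42.5% ± 0.81. With every cell thinned to 2000 UMIs the splenic shares were 42.1% ± 1.22 and 5.52% ± 1.68, and the thymic γδ T shares 47.1% ± 1.42 and 12.5% ± 3.33. Cells with a Bcl2 UMI also held fewer of them, 4.05 and 3.96 on average in WT and 2.66 and 2.16 in KO spleen, and 5.88 and 5.70 and then 3.01 and 3.16 in thymic γδ T cells. The lower Bcl2 level thus went with both fewer cells in which Bcl2 was detected and fewer Bcl2 UMIs in each of them. With 2 libraries a group an exact permutation test cannot go below p = 0.33, so shares carry no test.

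Bcl2a1b and Bcl2a1d went the other way. Bcl2a1b was read at 32.7 and 25.01 CPM in WT and at 199 and 181 CPM in KO splenic libraries. The thymic γδ T sort had it at 17.5 and 18.7 CPM in WT and at 304 and 339 CPM in KO, and the DN sort at 9.01 and 8.59 in WT and at 160 and 55.4 in KO. All 6 KO libraries lay above all 6 WT libraries, whatever the compartment. By edgeR the splenic log2 difference was 2.82 (SE 0.37) with an adjusted p of 0.000128. For thymic γδ T cells it was 4.28 (SE 0.39) with an adjusted p of 2.25e-05, and for the DN sort 3.59 (SE 0.38) with an adjusted p of 0.000237. With every cell holding a UMI of Cd79a, Cd79b, Ms4a1, Lyz2 or Csf1r left out, the DN value was 3.54 (SE 0.39, adjusted p = 0.000408). The 2 KO libraries of the DN sort differed from each other far more than any other pair of replicates did for this gene, and the one with more Bcl2a1b was also the one with more Trac, whose part in this was not tested.

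Bcl2a1d rose alongside. It was at 10.9 and 7.43 CPM in WT and 105 and 95.6 in KO spleen, at 6.50 and 8.37 and then 143 and 166 in thymic γδ T cells, and at 4.45 and 4.08 and then 74.7 and 24.4 in the DN sort. Its log2 differences were 3.56 (SE 0.42), 4.50 (SE 0.44) and 3.51 (SE 0.43), with edgeR adjusted p values of 6.65e-05, 3.11e-05 and 0.000454. Since the copies share reads, they were also summed with a further copy, Bcl2a1a, into 1 feature. The sum rose by 3.28 (SE 0.39) in the spleen, 4.57 (SE 0.42) in thymic γδ T cells and 3.66 (SE 0.40) in the DN sort on the log2 scale, with edgeR adjusted p values of 7.30e-05, 2.22e-05 and 0.000270, so the rise does not rest on how reads were split among them. A Bcl2a1b UMI was found in 10.2% ± 1.51 (SD, n = 2) of WT and 61.6% ± 1.92 of KO splenic cells, and in 8.96% ± 0.61 of WT and 68.2% ± 2.50 of KO thymic γδ T cells. The DN shares were 4.09% ± 0.65 and 26.5% ± 14.5, and after thinning 2.02% ± 0.14 and 17.7% ± 9.95.

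**Figure D1:**
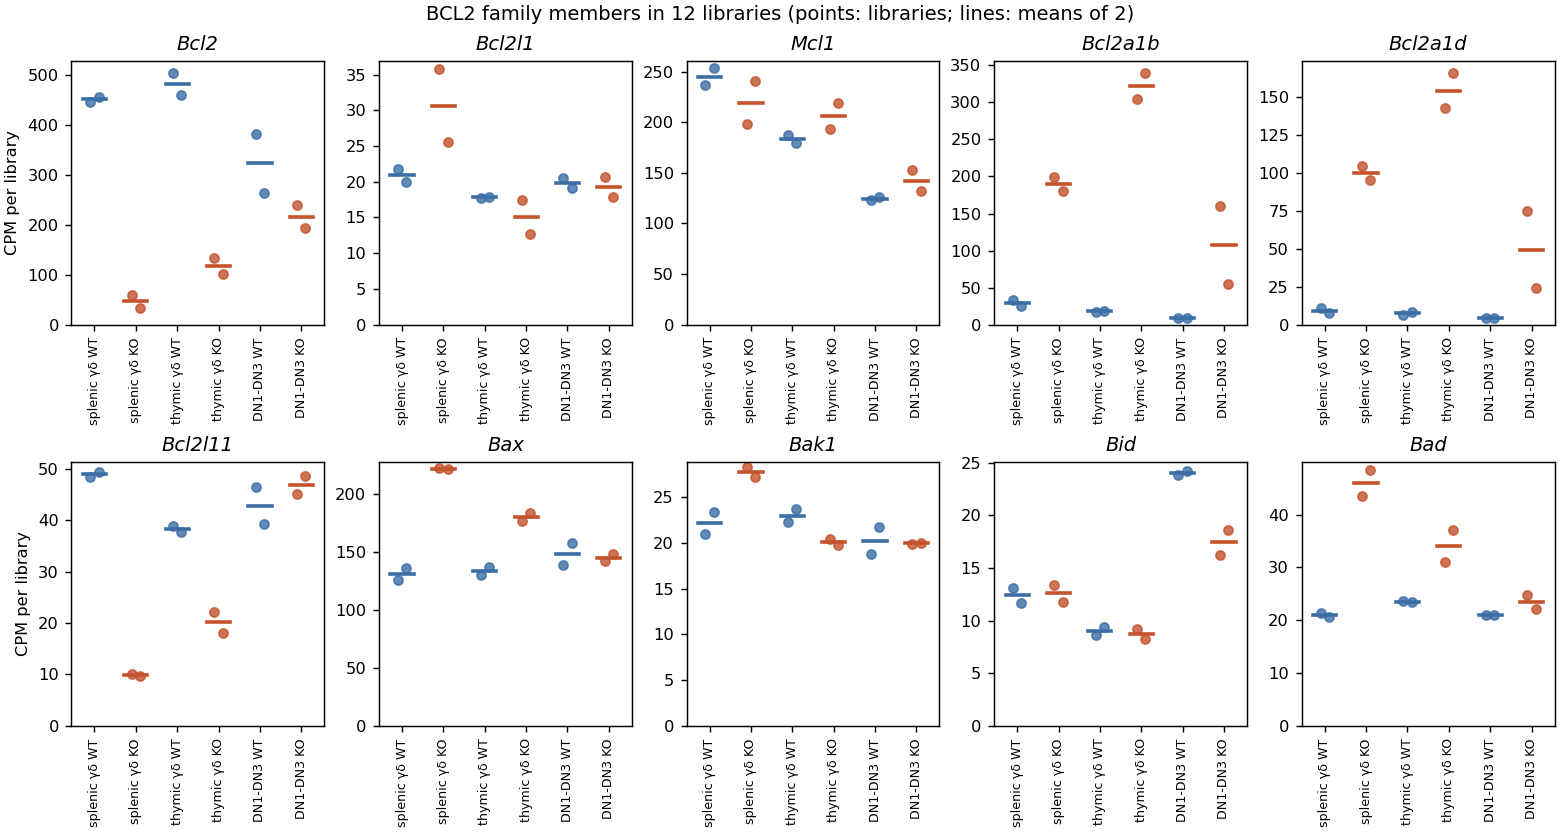
Level of each of the 10 genes in each library, in CPM on a linear axis, for splenic γδ T cells, thymic γδ T cells and the DN sort. Points are single libraries (2 a group) and bars the mean of 2. Bcl2 and Bcl2l11 lie lower in KO γδ T cells of both organs, Bcl2a1b and Bcl2a1d higher in all 3 compartments, and no Mcl1 difference passed the test.

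Mcl1 and Bcl2l1 are the remaining survival genes. MCL1 is a short-lived protein that T cells need at nearly every stage. Mcl1 was at 236 and 254 CPM in WT and 198 and 241 in KO spleen, at 188 and 180 and then 194 and 219 in thymic γδ T cells, and at 123 and 126 and then 153 and 132 in the DN sort. The splenic groups overlapped (log2 difference -0.07, SE 0.11). The thymic γδ T difference of 0.29 (SE 0.11) narrowly missed the threshold (edgeR, adjusted p = 0.0542) and passed with the pool as a replicate block (adjusted p = 0.0424). The DN difference was 0.19 (SE 0.11) and did not pass. Bcl2l1, the gene for BCL-XL, rose in KO spleen, from 21.8 and 19.98 to 35.7 and 25.6 CPM (log2 difference 0.65, SE 0.16, edgeR adjusted p = 0.00693). That call was lost without KO library 1, where the difference was 0.36, and without WT library 2, where it was 0.53. Bcl2l1 in thymic γδ T cells was at 17.8 and 17.9 CPM in WT and 17.4 and 12.7 in KO, and in the DN sort at 20.6 and 19.1 and then 20.6 and 17.9, and neither difference passed.

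Among the BH3-only genes, Bcl2l11 followed Bcl2. Its product BIM binds all survival members. In the spleen it fell from 48.5 and 49.3 CPM in WT to 9.996 and 9.77 in KO, a fall of 2.21 on the log2 scale (SE 0.11, edgeR adjusted p = 2.03e-07). Thymic γδ T cells went from 39.0 and 37.8 to 22.2 and 18.1 (-0.81, SE 0.10, adjusted p = 0.000119). Among DN cells the WT libraries at 46.4 and 39.2 overlapped the KO libraries at 45.1 and 48.6 (0.14, SE 0.10, adjusted p = 0.355). The share of cells with a Bcl2l11 UMI was 18.9% ± 0.42 (SD, n = 2) in WT and 4.97% ± 0.12 in KO spleen.

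Bad, which couples growth factor signals to the survival members, rose in γδ T cells of both organs. It went from 21.3 and 20.6 CPM in WT to 43.4 and 48.5 in KO spleen (log2 difference 1.23, SE 0.11, edgeR adjusted p = 6.98e-06) and from 23.7 and 23.4 to 31.0 and 37.1 in the thymic ones (0.66, SE 0.11, adjusted p = 0.000535). Bad in the DN sort was at 20.9 and 21.0 in WT and 24.8 and 22.1 in KO, which did not pass. Bid, which links death receptors to the mitochondrion, differed in the precursors. It was at 23.8 and 24.3 CPM in the WT and 16.2 and 18.6 in the KO libraries of the DN sort (-0.46, SE 0.13, adjusted p = 0.0278). Without cells holding an Mki67 or Top2a UMI the Bid difference was -0.06 (adjusted p = 0.794), and the call was also lost when WT library 1, WT library 2 or KO library 1 was left out (-0.55, -0.40 and -0.33). In both γδ T sorts Bid stayed between 8.29 and 13.4 CPM with overlapping genotypes.

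Of the effector genes, Bax rose in γδ T cells of both organs and Bak1 in the spleen. Bax went from 126 and 136 CPM in WT to 223 and 221 in KO spleen (edgeR log2 difference 0.86, SE 0.11, adjusted p = 9.74e-05) and from 130 and 137 to 176 and 184 in the thymic γδ T sort (0.56, SE 0.11, adjusted p = 0.00196). Bax in the DN sort was at 139 and 157 in WT and 142 and 148 in KO, and the groups overlapped. Bak1 rose in the spleen from 21.0 and 23.4 to 28.4 and 27.3 (0.42, SE 0.11, adjusted p = 0.00871), a call lost without WT library 1 (0.34) or KO library 1 (0.36). Bak1 in the thymic γδ T sort was at 22.3 and 23.8 CPM in WT and 20.4 and 19.8 in KO, and in the DN sort at 18.8 and 21.7 and then 19.95 and 20.05, with neither passing.

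Counted together, 6 of the 10 genes rose and 2 fell in KO spleen, where 54.7% of all tested genes passed in one direction or the other. Among thymic γδ T cells 4 rose and 2 fell, against a background of 49.7%, and in the DN sort 2 rose and 1 fell, against 23.0%. The share of the 10 genes that passed was thus above the background in the spleen and near it in the thymus and the DN sort. Bcl2a1b and Bcl2a1d count here as 2 genes although their reads cannot always be told apart, and they are the 2 that rose in the DN sort. With backgrounds this high the counts alone say little about the family. Their median log2 difference was 0.53 in the spleen, 0.19 in thymic γδ T cells and 0.06 in the DN sort, beside medians over all tested genes of 0.003, -0.002 and -0.02. What set single members apart was size: the median absolute log2 difference over all tested genes was 0.53, 0.46 and 0.26.

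**Figure D2:**
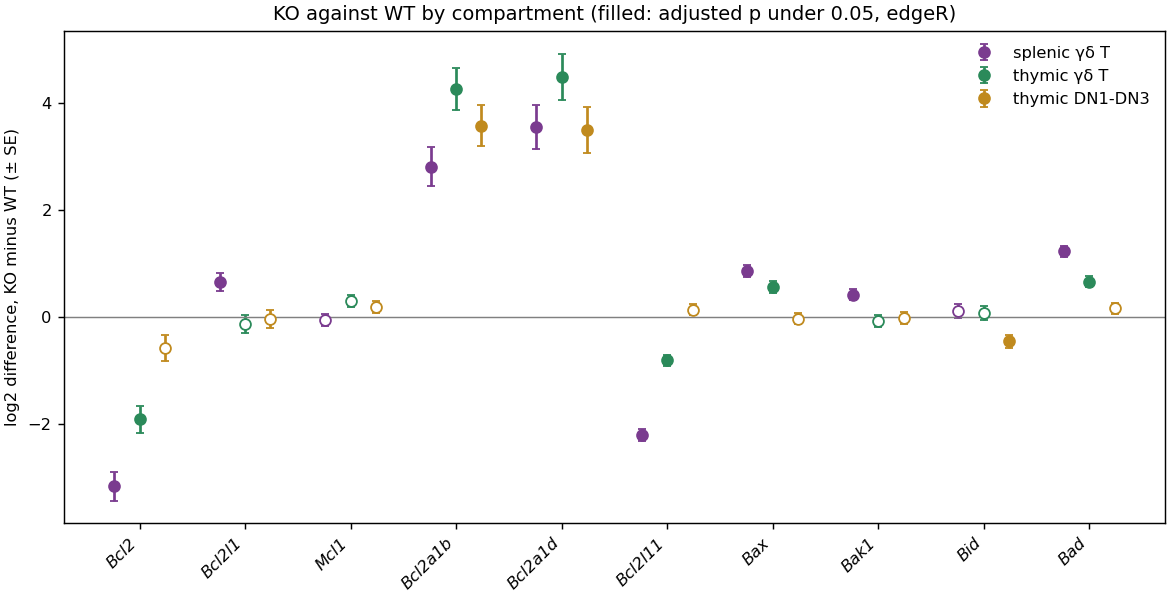
Log2 difference of KO from WT for each of the 10 genes in the 3 compartments, with bars of 1 SE from the edgeR fit over 12 libraries, filled where the adjusted p was under 0.05. Bcl2a1b and Bcl2a1d lie at 2.82 and above in every compartment, while Bcl2 lies at -3.18, -1.92 and, not passing, -0.58.

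The size of the KO effect was also compared between compartments. When the effect in the spleen was tested against that in thymic γδ T cells, 6 of the 10 genes differed, against 29.6% of all tested genes. This count fell to 1 to 3 when a single library was left out, to 3 without the 5% of cells with the most UMIs and to 2 (Bcl2l11 and Bcl2l1) without Mki67 or Top2a cells, which is near or below the background. Bcl2l11 fell further in the spleen by 1.40 on the log2 scale (SE 0.15, edgeR adjusted p = 0.000156), and this call held when any single library was left out, and at -0.81 without Mki67 or Top2a cells (adjusted p = 0.00594). Bcl2 also fell further, by 1.26 (SE 0.35, edgeR adjusted p = 0.0227). For Bcl2l1, Bad and Bak1 the KO effect was higher in the spleen, by 0.78, 0.57 and 0.49 (edgeR adjusted p = 0.0306, 0.0178 and 0.0386). Bcl2l1 and Bak1 did not rise in thymic γδ T cells, with log2 differences of -0.13 and -0.07 that did not pass. The calls of Bcl2, Bcl2l1, Bad and Bak1 in this contrast were lost when some single libraries were left out, with Bcl2 then between -1.09 and -1.32. Bcl2a1b rose less in the spleen, by -1.46 (adjusted p = 0.0491), and lost that call when any of the 8 libraries was left out and with the copies summed (-1.29, adjusted p = 0.0866). With the KO effect in thymic γδ T cells set against that in the DN sort, 4 genes differed, against a background of 21.9%. The KO effect was lower in the γδ T cells for Bcl2 and Bcl2l11, by 1.35 and 0.95 (edgeR adjusted p = 0.0214 and 0.00168). For Bax and Bad it was higher, by 0.59 and 0.50 (edgeR adjusted p = 0.0228 and 0.0370). Bcl2l11 did not fall and Bax did not rise in the DN sort, with log2 differences of 0.14 and -0.03 that did not pass. The Bcl2, Bax and Bad calls were each lost when some single library was left out. Fewer genes differed without Mki67 or Top2a cells. Bid passed in that comparison only with the replicate block (0.55, adjusted p = 0.0341). Both of these contrasts use the thymic γδ T libraries, so they are not independent of each other. Splenic libraries held almost no Xist and thymic libraries held much of it. Organ and the mix of donor sexes therefore cannot be told apart in the contrast of spleen with thymus.

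The make-up of the survival pool can be read within a library, where depth and scaling cancel. Over the UMIs of Bcl2, Bcl2l1, Mcl1, Bcl2a1b and Bcl2a1d, Bcl2 took 59.7% and 59.9% in the 2 WT and 9.88% and 5.91% in the 2 KO splenic libraries. Both Bcl2a1 genes together took 5.82% and 4.25% in WT and 50.9% and 47.9% in KO. In thymic γδ T cells the Bcl2 share went from 68.8% and 67.3% to 16.9% and 12.1%, and the Bcl2a1 share from 3.26% and 3.95% to 56.5% and 60.3%. In KO γδ T cells of both organs both Bcl2a1 genes summed thus held more than any other gene. Taken singly, Bcl2a1b at 33.4% and 31.4% in KO spleen stood beside Mcl1 at 33.2% and 41.7%. Mcl1 kept 24.4% to 41.7% across the γδ T libraries. Among DN cells Bcl2 held 70.9% and 62.7% in WT and 37.0% and 45.7% in KO, and the Bcl2a1 genes 2.50% and 2.999% and then 36.2% and 18.8%. The 2 KO libraries of the DN sort thus differed in the Bcl2a1 share but both exceeded WT.

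**Figure D3:**
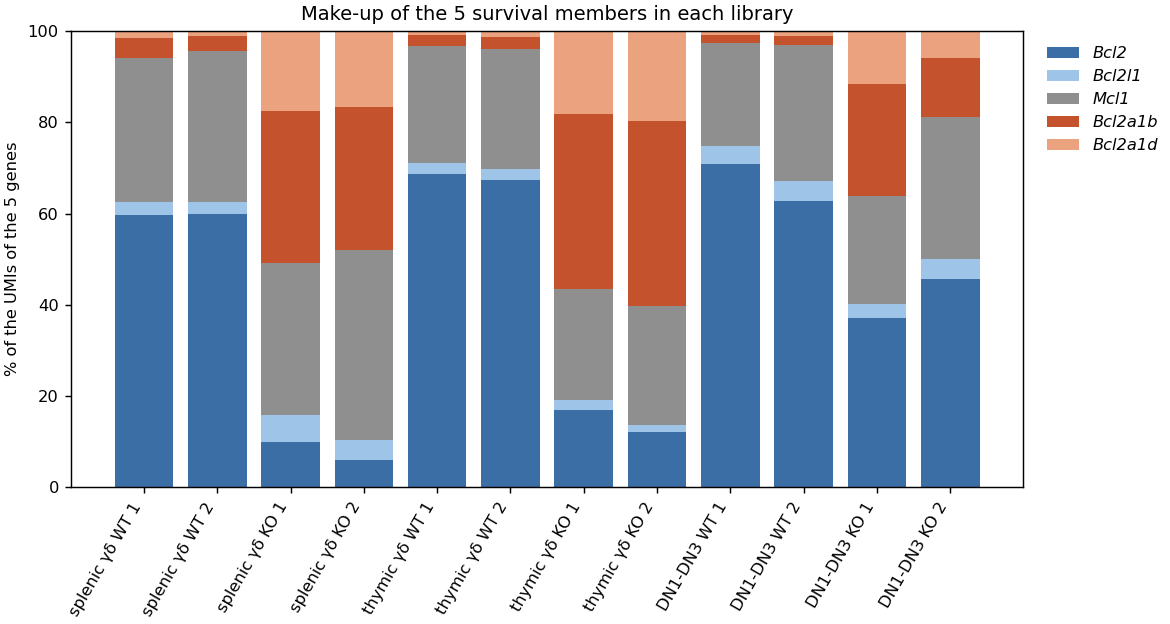
Share of the UMIs of 5 survival genes (Bcl2, Bcl2l1, Mcl1, Bcl2a1b, Bcl2a1d) taken by each, in percent, 1 stacked bar per library from 0 to 100. Bcl2 fills 59.7% to 70.9% of each WT bar, and the Bcl2a1 genes fill 47.9% to 60.3% of the KO γδ T bars.

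The total over the 5 survival genes differed less, in proportion, than Bcl2, Bcl2a1b or Bcl2a1d did. It was 748 and 764 CPM in WT and 597 and 577 in KO spleen, 735 and 686 and then 792 and 838 in thymic γδ T cells, and 539 and 422 and then 648 and 423 in the DN sort. The 5 death genes (Bcl2l11, Bid, Bad, Bax and Bak1) summed to 230 and 241 CPM in WT and 318 and 318 in KO spleen. The ratio of survival to death UMIs was therefore 3.26 and 3.17 in WT and 1.88 and 1.81 in KO spleen, a clear gap with no overlap. The thymic γδ T ratio was 3.29 and 2.96 in WT and 3.06 and 3.14 in KO, and in the DN sort 2.17 and 1.60 in WT and 2.61 and 1.64 in KO, with overlapping groups in both. Bcl2a1a, a further A1 copy, is not in these sums, and this choice matters for the thymus. In an alternative chosen after the data had been seen that counted its UMIs too, the thymic γδ T ratio was 3.30 and 2.97 in WT and 3.498 and 3.65 in KO, no longer overlapping and higher in KO, and the splenic KO ratios were 2.27 and 2.16 beside 3.29 and 3.19 in WT. There were 9.20 and 9.27 Bcl2 UMIs for each Bcl2l11 UMI in WT and 5.90 and 3.49 in KO spleen, so Bcl2 was lower relative to Bcl2l11 although both fell. These are ratios of counted UMIs and not of proteins, and capture was not compared between genes. They cover only the genes named here and are not a balance of the whole family. Genes left out include Pmaip1, Bik and Bmf, with splenic log2 differences of 3.11, 2.02 and -2.17.

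Cells with a leading UMI count for the TCR γ variable gene Trgv6 are rare in WT and frequent in KO libraries, so each gene was followed within cells of 1 call. A cell was called by the Trgv gene with the most UMIs, ties left out. Trgv6 was called in 188 and 229 WT and in 3422 and 4613 KO splenic cells, and in 41 and 57 WT and 2028 and 2691 KO thymic γδ T cells. In WT spleen, Trgv6-called cells already differed from Trgv1-called cells of the same libraries. Bcl2a1b was at 129 and 122 CPM in the former and 29.2 and 20.9 in the latter, higher by 2.41 on the log2 scale (SE 0.13, edgeR with library as block, adjusted p = 3.27e-09). Bcl2 was lower, at 133 and 248 against 422 and 427 CPM (-1.12, SE 0.24, adjusted p = 0.0277), and so was Bcl2l11, at 17.9 and 28.5 against 43.2 and 46.3 (-0.88, SE 0.21, adjusted p = 0.00589). Bcl2a1d, Bad, Bcl2l1 and Bax were higher, by 2.88, 1.008, 0.64 and 0.50, so that 5 genes were higher and 2 lower against a background of 27.0% of genes passing. Without the block, the Bcl2 and Bcl2l1 calls were lost at nearly unchanged differences of -1.10 and 0.63. The Bcl2l1 call was also lost without either WT library (0.65 and 0.66) and the Bcl2l11 call without WT library 1 (-0.66), where Bcl2 still passed at -0.74.

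Within Trgv6-called splenic cells the genotypes still differed. Bcl2 was at 133 and 248 CPM in WT and 36.6 and 24.6 in KO (log2 difference -2.69, SE 0.39, edgeR adjusted p = 0.0239) and Bcl2l11 at 17.9 and 28.5 and then 9.51 and 9.21 (-1.37, SE 0.26, adjusted p = 0.00386). Bcl2a1b rose from 129 and 122 to 203 and 184 (0.58, SE 0.14, adjusted p = 0.0148) and Bcl2a1d from 62.2 and 42.7 to 108 and 96.8 (0.94, SE 0.18, adjusted p = 0.00514). These 2 rises were far smaller in value than those over all splenic cells. The 4 genes that passed compare with 12% of all genes tested in these cells. The Bcl2 call was lost without either WT library (-3.03 and -2.18), the Bcl2l11 call without WT library 2 (-0.998), and the Bcl2a1b call without either KO library (0.44 and 0.66).

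Trgv6-called thymic cells moved the same way. Bcl2 went from 318 and 352 CPM in WT to 60.7 and 33.8 in KO (-2.76, SE 0.34, edgeR adjusted p = 0.00521), and Bcl2a1b from 147 and 107 to 392 and 401 (1.75, SE 0.18, adjusted p = 3.01e-05). Bcl2a1d and Bax rose as well, by 2.00 and 0.53, and Bcl2l11 fell by 1.48, which makes 3 up and 2 down against a background of 15.9%. The WT values rest on few cells, with 93 and 132 UMIs of Bcl2 and 16 and 9 of Bcl2l11, and the Bcl2l11 call was lost without WT library 1 (-0.78) and without either KO library (-1.52 and -1.54). The Bcl2 call was lost without either WT library, at -2.78 and -2.69, and the Bax call without WT library 2 (0.46) or either KO library (0.49 and 0.52). Bcl2a1b and Bcl2a1d passed with any 1 library left out.

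The shift was also present outside the Trgv6-called cells, in alternatives that were chosen after the data had been seen. The paper warns that TCR variable regions are not captured reliably by its 3′ method. Cells without a Trgv6 call are thus not known to lack the Vγ6 chain, and whether the shift is independent of it was not tested. With Trgv6-called cells left out, which keeps cells with no call (a call was made in 55.8% to 72.2% of cells of the γδ T libraries), the log2 difference of Bcl2 was -2.87 (SE 0.29, edgeR adjusted p = 2.90e-05) in the spleen and -1.58 (SE 0.27, adjusted p = 0.00135) in the thymus, and that of Bcl2a1b 2.91 (SE 0.38) and 4.14 (SE 0.40). Trgv1-called cells numbered 674 and 1059 in WT and 172 and 264 in KO spleen, and 720 and 887 and then 458 and 304 in the thymus. In these cells alone, Bcl2 fell from 422 and 427 to 137 and 64.2 CPM in the spleen (-2.09, SE 0.30, adjusted p = 0.00165) and from 528 and 522 to 129 and 127 in the thymus (-1.98, SE 0.27, adjusted p = 0.00162). Bcl2a1b rose in these cells from 29.2 and 20.9 to 184 and 163 CPM in the spleen (2.83, SE 0.28, adjusted p = 0.000151) and from 19.7 and 34.5 to 315 and 322 in the thymus (3.60, SE 0.25, adjusted p = 2.87e-05). Bcl2l11 fell in Trgv1-called splenic cells (-1.45, SE 0.23) but gave 26.4 and 30.4 CPM in WT and 28.2 and 21.7 in KO in the thymus, where the difference of -0.11 did not pass.

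**Figure D4:**
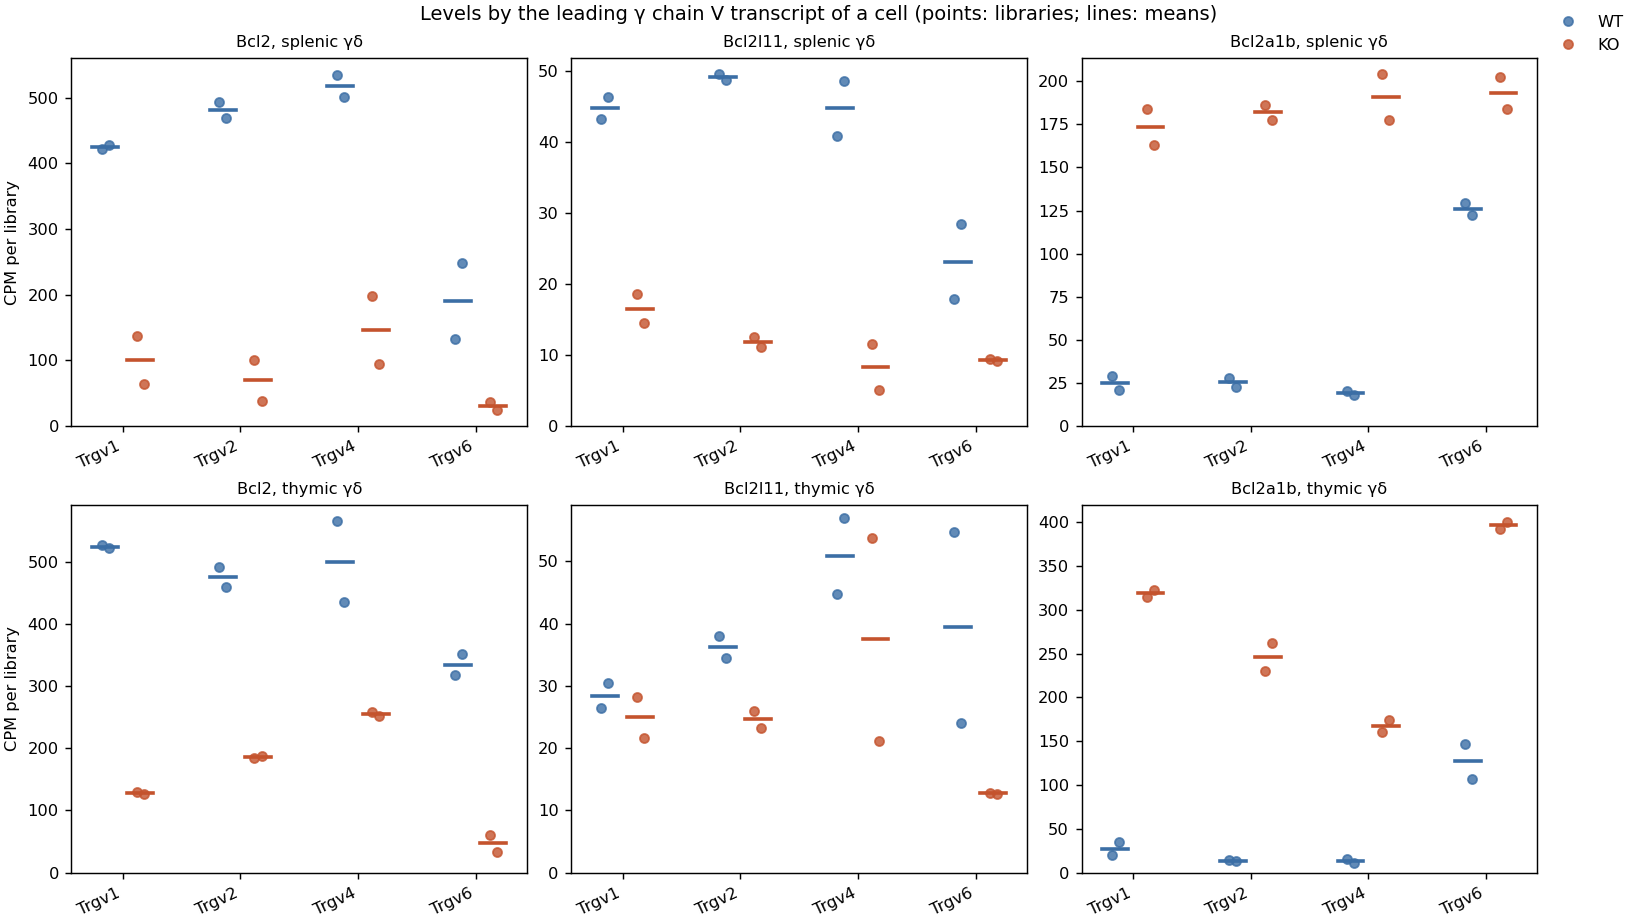
Bcl2, Bcl2l11 and Bcl2a1b in CPM in cells called by their leading Trgv gene, in the 4 splenic and the 4 thymic γδ T libraries, 1 point per library. KO points of Bcl2 lie below the WT points and those of Bcl2a1b above them for each of the 4 calls shown, and the WT cells called Trgv6 have more Bcl2a1b than the WT cells called Trgv1, Trgv2 or Trgv4.

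Single cells were also split by whether they held a Bcl2a1b UMI, as a description without a test. In KO thymic γδ T libraries Bcl2 was at 74.8 and 44.6 CPM in cells with such a UMI and at 265 and 256 in cells without. In KO spleen it was at 37.6 and 22.9 against 102 and 54.8, and in WT spleen at 268 and 314 against 477 and 476. Bcl2 was the lower in cells with a Bcl2a1b UMI in all 12 libraries. Splenic KO cells without a Bcl2a1b UMI still had less Bcl2 than WT cells of either kind. A cell without a UMI may still express the gene, since detection depends on depth.

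Within the DN sort the Bcl2a1 genes were unevenly spread. Cells with an Il2rb UMI outside the Il2ra and Ptcra gate numbered 236 and 254 in WT and 1790 and 989 in KO libraries. They held Bcl2a1b at 130 and 151 CPM in WT and 385 and 269 in KO. Cells with UMIs of both Il2ra and Ptcra, genes of the DN2 and DN3 stages, held it at 3.91 and 2.01 CPM in WT and 27.6 and 8.81 in KO. Cells with a Kit UMI and none of Ptcra stood at 2.85 and 1.12 in WT and 51.7 and 28.3 in KO. Cells with UMIs of both Cd79a and Cd79b, as B-lineage cells have, numbered 4 to 57 a library and held 15.9 to 55.0 CPM of Bcl2a1b, less than the Il2rb class of the same library. The WT libraries held only 9 and 4 such cells, so their values rest on very few molecules.

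In the gated Il2ra and Ptcra cells, tested alone, 1 gene rose and 1 fell, against a background of 13.9%. Bcl2l11 rose from 49.8 and 41.7 CPM in WT to 59.3 and 56.5 in KO (log2 difference 0.36, SE 0.10, edgeR adjusted p = 0.0399), a direction opposite to that in γδ T cells. Bid fell from 23.6 and 24.8 to 17.9 and 17.4 (-0.44, SE 0.10, adjusted p = 0.0228). Both calls were lost without WT library 2 (0.28 and -0.36), and 1 to 5 genes passed when single libraries were left out. Bcl2 was at 305 and 222 in WT and 211 and 160 in KO (-0.50, SE 0.15, adjusted p = 0.0574), and Bcl2a1b had a difference of 2.57 (SE 0.76, adjusted p = 0.173). With the pool as a replicate block 5 genes passed by edgeR: Bcl2 (-0.49, adjusted p = 3.52e-07), Bcl2a1b (2.55, adjusted p = 1.94e-12) and Bcl2a1d (2.40, adjusted p = 6.55e-10) joined Bcl2l11 and Bid. The block leaves very few residual degrees of freedom in the DN libraries. These small p values therefore lean on spread borrowed from other genes and not on replication. The Bcl2a1b values of the gated cells are close to 0 beside those of the Il2rb class, and the part that free RNA has in them was not tested.

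**Figure D5:**
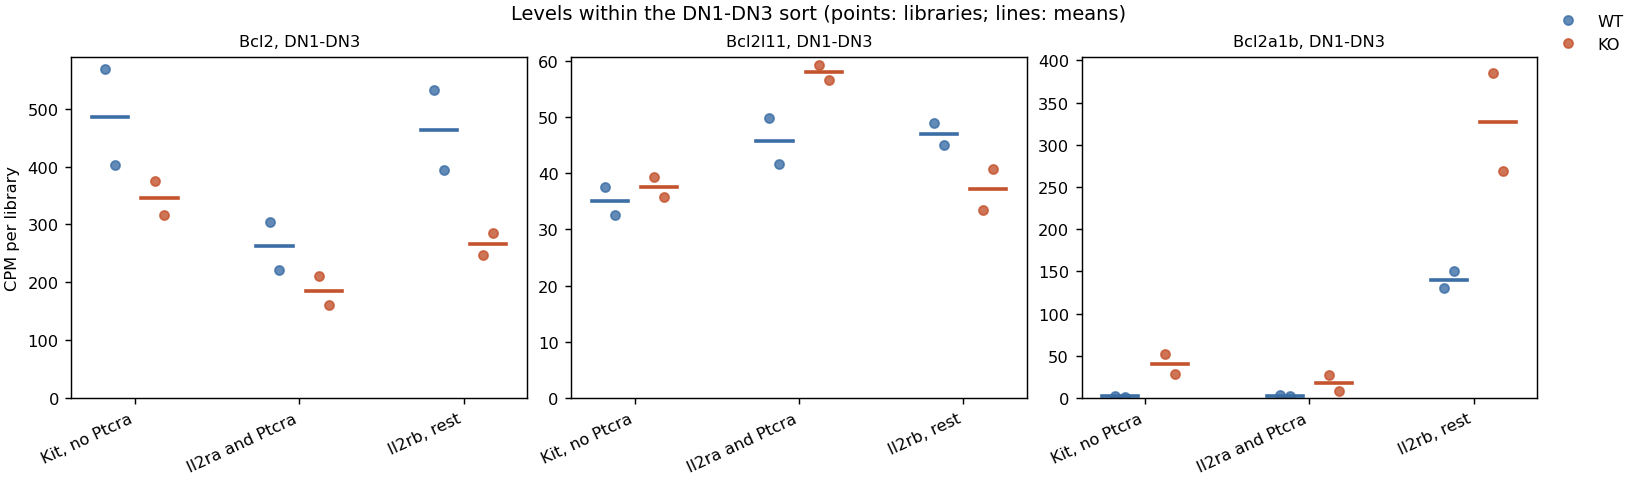
Bcl2, Bcl2l11 and Bcl2a1b in CPM in classes of cells of the DN sort, defined by UMIs of Il2ra, Ptcra, Il2rb and Kit, 1 point per library. Bcl2a1b is highest in the Il2rb class in each library, at 130 and 151 CPM in WT and 385 and 269 in KO, and low in the Il2ra and Ptcra class.

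The WT libraries alone give the levels from which these changes departed. Thymic γδ T cells held more Mcl1 than the DN sort (log2 difference 0.58, SE 0.11, edgeR adjusted p = 0.00211) and less Bid (-1.40, SE 0.13, adjusted p = 2.42e-05). Bcl2a1b was higher in them too (1.06, SE 0.36, adjusted p = 0.0351), so 2 genes were higher and 1 lower against a background of 47.2%. The Bcl2a1b call was lost when any of the 4 libraries was left out. WT splenic γδ T cells held more Mcl1 (0.50, SE 0.11, adjusted p = 0.00518), Bid (0.54, SE 0.13, adjusted p = 0.00705) and Bcl2l11 (0.43, SE 0.10, adjusted p = 0.00568) than WT thymic ones, 3 genes against a background of 48.8%. Without Mki67 or Top2a cells the Bcl2l11 difference was -0.04 and the Mcl1 difference 0.27, and neither passed. Splenic libraries held Xist at no more than 0.37 CPM and thymic libraries at 739 to 1600, so organ and the mix of donor sexes cannot be told apart in that comparison.

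Ordered by level over the 6 groups of compartment and genotype, Bcl2 ran from WT thymic γδ T, WT spleen, WT DN, KO DN and KO thymic γδ T to KO spleen, with no overlap between neighbours. Bcl2a1b ran from KO thymic γδ T, KO spleen, KO DN, WT spleen and WT thymic γδ T to WT DN, again with none. For Mcl1 the first 3 places, WT spleen, KO spleen and KO thymic γδ T, overlapped from neighbour to neighbour. Bcl2l11 was highest in WT spleen, KO DN and WT DN, which overlapped likewise, and lowest in KO spleen. Bax and Bad were highest in KO spleen and next in KO thymic γδ T cells, with the other 4 groups close together. Bid was highest in WT DN, followed by KO DN.

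Genes whose log2(CPM + 1) followed the same pattern over the 12 libraries were looked up among the 6728 tested genes whose mean reached 20 CPM, as a description, since the libraries share groups. Closest to Bcl2 were Abtb2, Vamp1 and Pam (Pearson's r 0.988, 0.984 and 0.983). Bcl2l11 was followed most closely by Lck, the proximal kinase of the T cell receptor, with Actn1 (both 0.992) and Slc25a27 (0.987). Nearest to both Bcl2a1b and Bcl2a1d were Crmp1 (0.987 and 0.988) and Icos (0.986 for each), an inducible costimulator of T cells, with Cdh10 (0.984) next for Bcl2a1b and Ifi30 (0.984) for Bcl2a1d. For Mcl1 the leading genes were Capn1, Acap1 and Man2b1 (0.975, 0.968 and 0.968).

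The wider apoptosis network was read from lists of named genes, whose counts stand against the 54.7%, 49.7% and 23.0% of all tested genes that passed in the spleen, in thymic γδ T cells and in the DN sort. Of 16 other BCL2 family genes 14 were tested. In the spleen 7 rose and 2 fell, in thymic γδ T cells 7 rose and 3 fell, and in the DN sort 4 rose and none fell, with medians of 0.61, 0.42 and 0.16, so the shares that passed were above but not far from the background in the spleen and the DN sort. The further A1 copies Bcl2a1a and Bcl2a1c rose in all 3 compartments, Bcl2a1a by 4.19, 5.998 and 5.41 and Bcl2a1c by 4.24, 5.81 and 3.35 on the log2 scale. Bcl2l14 fell by 4.84 in the spleen (SE 0.33, edgeR adjusted p = 1.4e-06). Bik, a BH3-only gene, rose by 3.78 in thymic γδ T cells, by 2.12 in the DN sort and by 2.02 in the spleen, where it was not among the 3 largest differences. The splenic value is over all cells. Within splenic Trgv6+ cells, ranked over cells, the paper's own list has Bik lower in KO.

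Downstream of the mitochondrion, 14 genes of the apoptosome, the caspases and their inhibitors were all tested. In the spleen 5 rose and 3 fell, in thymic γδ T cells 4 rose and 5 fell, and in the DN sort 2 rose and 2 fell, with medians of 0.11, -0.01 and -0.14. Beside the background of 54.7%, 49.7% and 23.0%, the splenic and DN counts were near it. Casp9, the initiator caspase of the intrinsic route, rose by 1.15 in the spleen, 1.17 in thymic γδ T cells and 0.72 in the DN sort (edgeR adjusted p = 2.3e-05, 3.7e-05 and 0.0024). Birc5 (survivin), whose product also serves cell division, fell by 1.28 in the spleen and by 1.80 in thymic γδ T cells. Birc3 rose by 0.91 and Apaf1 fell by 0.30 in the DN sort.

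The death receptor branch, 10 genes, gave 5 up and 3 down in the spleen, 4 up in thymic γδ T cells and 5 up in the DN sort. The thymic γδ T count is below the background of 49.7%, and the splenic and DN counts are above the 54.7% and 23.0% there. Fasl and Fas, the ligand and receptor of activation-induced death, fell by 3.50 and 1.25 in the spleen (edgeR adjusted p = 0.00054 and 0.0020) and rose by 1.89 and 1.14 in the DN sort (adjusted p = 0.026 and 0.010). Tnfrsf1a rose by 0.79 in the spleen. Tnfrsf10b, Tnfrsf1b and Ripk1 rose by 0.90, 0.88 and 0.72 in thymic γδ T cells, and Tnfrsf1b by 0.87 in the DN sort. Of 17 regulators known to act on BCL2 genes, 2 rose and 9 fell in the spleen, with a median of -0.35, while 9 rose and 3 fell in thymic γδ T cells (median 0.42) and 7 rose and 1 fell in the DN sort (median 0.15). These counts are above the 54.7%, 49.7% and 23.0% of their sorts, though not far above in the spleen. Myc, Foxo1 and the kinase gene Pim2 fell by 3.18, 1.47 and 1.42 in the spleen. Il7r, the receptor chain upstream of BCL2, rose by 2.26 in thymic γδ T cells, with Pim2 at 1.32 and the NF-κB subunit gene Relb at 1.23. In the paper's own list for splenic Trgv6+ cells, ranked over cells, Il7r was lower in KO. A link between Il7r and Bcl2 was not tested. In the DN sort Relb, Foxo1 and Pim2 rose by 1.82, 1.55 and 1.51. Of 6 genes that govern turnover of MCL1 protein none passed by edgeR in the spleen or the DN sort, where the smallest unadjusted p values were 0.0618 and 0.321 (both Huwe1), and Trib1 and Btrc fell by 0.61 and 0.31 in thymic γδ T cells.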

How the data were processed

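Per the labels' processing notes, the authors ran Cell Ranger 8.0.1 on GRCm39, split each pool by hashtag (hashsolo, which also removes cross-genotype doublets) and deposited integer UMI counts per gene and cell. Starting from those counts, 96911 of 97404 barcodes were kept by the limits of the study (500 UMIs and 200 genes as minima, 20% mitochondrial UMIs as maximum). Doublets within a genotype were not called. The tag of the labelled genotype was the more frequent one in nearly every cell, which checks the split and not the genotype. Counts were summed per library, 9538 ribosomal, Gm-numbered and mitochondrial genes were left out as in the study, and genes were tested in 1 fit over the 12 libraries with edgeR 4.0.16 (TMM, filterByExpr, robust quasi-likelihood test, R 4.3.3), Benjamini-Hochberg adjusted over all genes tested, threshold 0.05. The study ranked genes over cells, which are not replicates. Nothing in the sources used here says that the libraries of a group came from separate mice, so p values measure the spread between libraries. Shares of cells were also computed after thinning each cell to 2000 UMIs, which left out 123 to 1190 shallower cells a library.

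All 10 genes were named in every compartment. From the other lists, the 3 called genes with the largest absolute difference were named per comparison, and for likeness the 3 with the highest Pearson correlation. Some genes that this rule or the marker lists take in are not reported here. The members and lists were chosen with earlier results of these data known. The Trgv calls, the Il2ra and Ptcra gate and the pathway lists are transcript-based classes and not the sorts of the study. The descriptive DN classes (Il2rb, Kit, Cd79) and the split by a Bcl2a1b UMI have no test.

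WT and KO libraries of the same number came from 1 droplet run, so the numbers pair them by label. The correlation of deviations from the group means was 0.29 in the spleen, 0.06 in thymic γδ T cells and 0.17 in the DN sort. It was 0.09 (WT) and 0.07 (KO) between thymic γδ T and DN libraries of the same number and -0.09 and 0.002 between organs, and in both cases the number is only a name. Alternatives were DESeq2 1.42.0, RLE scaling, no filter on low counts, excluded genes kept, a mitochondrial limit of 10%, no cells of the top 5% by UMIs, no cycling cells, no cells with B or myeloid markers, summed Bcl2a1 copies, only the libraries compared, each library left out and the pool as a block. The fit was tested on simulated counts. Promoter sequences came from RefSeq tables on GRCm38.p6, which is not the build of the counts, and windows were found for 10 of 10 genes. Transcript sequences came from GENCODE. No protein sequence was used here.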

Additional observations from a re-analysis of the deposited data

Results flagged for a closer look

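Several genes responded to the KO label with a size that differed between compartments, by the edgeR test of the difference itself. Between spleen and thymic γδ T cells, the KO effect was lower in the spleen for Bcl2 (-1.26), Bcl2l11 (-1.40) and Bcl2a1b (-1.46) and higher for Bcl2l1 (0.78), Bak1 (0.49) and Bad (0.57), all as log2 differences. Between thymic γδ T and DN cells it was lower in the γδ T cells for Bcl2 (-1.35) and Bcl2l11 (-0.95) and higher for Bax (0.59) and Bad (0.50). The WT and KO thymic γδ T libraries enter both sets, and organ and the mix of donor sexes cannot be told apart in the first. Bcl2l11 passed in both sets under each alternative listed and with each library left out, and each of the other 8 values lost its call when at least 1 library was left out.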

How the results depend on the processing

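Over all alternatives, 1602 values of single genes were recomputed: 1403 kept their direction and side of the threshold, 114 lost a call, 35 gained one, 49 changed sign without being called in either fit, and 1 reversed. That 1 was Bcl2l11 in WT spleen against WT thymic γδ T cells, with a log2 difference of -0.041 without cells holding an Mki67 or Top2a UMI; the cause was not tested. The number of the 10 genes called for KO against WT stayed within 1.5 times of 8 in the spleen, 6 in thymic γδ T cells and 3 in the DN sort under every alternative, with 6 to 8, 6 to 7 and 2 to 3 when single libraries were left out. For the spleen against thymus difference in KO effect, 6 genes became 3 without the 5% of cells with the most UMIs, 2 without Mki67 or Top2a cells and 1 to 3 with single libraries left out. For thymic γδ T against DN, 4 became 2 without Mki67 or Top2a cells, 2 with only the libraries compared and 1 to 4 with single libraries left out. WT thymic γδ T against WT DN went from 3 to 5 with only the libraries compared, and WT spleen against WT thymus from 3 to 1 without Mki67 or Top2a cells, to 5 with only the libraries compared and to 5 with genotype and number as a replicate block, which added Bcl2l1 and Bcl2a1b. The same block left 3 in WT thymic γδ T against WT DN, with Bcl2 (0.64, edgeR adjusted p = 0.0108) in place of Bcl2a1b (1.08, adjusted p = 0.0799), but nothing says that libraries of different sorts with the same number belong together. Single libraries left out gave 2 to 3 in Trgv6-called splenic cells (4 in all), 3 in Trgv6-called thymic cells (5 in all), 5 to 6 in Trgv6-called against Trgv1-called WT splenic cells (7 in all) and 1 to 5 in Il2ra and Ptcra cells (2 in all), where the replicate block gave 5. In those fits a lone library is assumed to vary like the others, and fewer libraries also mean fewer residual degrees of freedom. Apart from these and the values given beside the results, the replicate block changed no call. Levels near 1 CPM, such as Bcl2a1b in WT DN cells with a Kit UMI and none of Ptcra (22 and 7 UMIs), rest on few molecules, and 2 libraries a group limit every test of a difference.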
